A study of Homo sapiens with 36 samples.

Results

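The replication-dependent histone genes are the 68 protein-coding genes on chromosomes 1 and 6 whose RefSeq symbols begin with H1-, H2AC, H2BC, H3C or H4C and a number, of 19970 protein-coding genes on chromosomes 1 to 22 and X. They comprise 6 H1, 17 H2A, 18 H2B, 13 H3 and 14 H4 genes, with 55 on chromosome 6 between positions 25726063 and 27893891 (hg38), 11 at 1q21 and 2 at 1q42. A gene was counted as having a peak in a library when the summit of a deposited peak lay in its body or within 1 kb of either end.

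Peaks came from CUT&Tag, in which an antibody directs a transposase to the chromatin it recognises, in HUDEP-2 cells, an immortalized line of human erythroid progenitors. All cells were infected with lentivirus, sorted for GFP and grown with erythropoietin, stem cell factor, doxycycline and dexamethasone. With an in-house rabbit antibody to GATA2 there were 4 libraries each of wild-type cells with empty vector, of GATA2+/- cells (called GATA2-low in the titles) with empty vector, of GATA2-low cells with HA-GATA2 and of GATA2-low cells with HA-GATA2(T354M), which carries a pathogenic change in a zinc finger. With a rabbit antibody to the HA tag there were 4 libraries each of GATA2-low cells with HA-GATA2, with HA-GATA2(T354M) and with empty vector. The empty-vector cells carry no tagged protein, so their anti-HA lists are the background of that antibody. The genotype label of 1 library, replicate 1 of GATA2-low cells with empty vector and anti-GATA2, reads wild-type, and its title was followed, and values without it are given where it enters. Nothing in the labels names separate cultures or clones, so p-values measure only the spread between libraries, which may be technical.

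Replication-dependent histone genes supply the bulk of histone protein in S phase, when new DNA is packed into nucleosomes. A nucleosome core holds H2A, H2B, H3 and H4, and the H1 linker histones bind the DNA between cores. The genes lie in clusters, have no introns as a rule, and their messenger RNAs end in a stem-loop in place of a poly(A) tail. Many H2A and H2B genes lie head to head and share a short promoter, in which the octamer ATTTGCAT, bound by the factor POU2F1 (OCT1), is a known element. GATA2 is a zinc finger factor of blood stem and progenitor cells that binds the core letters GATA.

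The first sequences shown are those between head-to-head H2A and H2B genes where empty-vector cells had anti-HA peaks. The pair at 1q21 is at chr1:149886683-149886917 (plus strand), and the 3 pairs on chromosome 6 are at chr6:27132796-27133042 (plus strand), chr6:27146859-27147105 (minus strand) and chr6:27814778-27815021 (plus strand). All 4 are the bases between the 2 genes, from the RefSeq table of GRCh38. Capitals mark TATAAA, the box CCAAT and the octamer ATTTGCAT, on either strand, and overlapping marks run together.
H2BC21 and H2AC20: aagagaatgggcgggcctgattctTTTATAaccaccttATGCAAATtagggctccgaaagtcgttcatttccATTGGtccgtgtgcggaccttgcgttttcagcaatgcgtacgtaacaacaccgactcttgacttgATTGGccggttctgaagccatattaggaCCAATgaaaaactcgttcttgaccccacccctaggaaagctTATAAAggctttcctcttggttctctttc
H2BC11 and H2AC11: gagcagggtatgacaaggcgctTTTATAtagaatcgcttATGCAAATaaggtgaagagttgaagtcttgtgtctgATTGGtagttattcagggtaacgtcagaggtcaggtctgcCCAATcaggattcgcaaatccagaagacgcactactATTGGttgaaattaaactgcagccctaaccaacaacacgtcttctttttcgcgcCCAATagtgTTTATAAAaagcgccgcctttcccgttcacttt
H2BC12 and H2AC12: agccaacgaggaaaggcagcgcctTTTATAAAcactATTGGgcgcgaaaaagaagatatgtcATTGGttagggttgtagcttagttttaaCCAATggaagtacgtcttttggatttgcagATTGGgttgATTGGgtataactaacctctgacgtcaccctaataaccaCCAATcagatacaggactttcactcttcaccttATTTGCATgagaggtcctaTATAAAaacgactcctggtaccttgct
H2AC14 and H2BC14: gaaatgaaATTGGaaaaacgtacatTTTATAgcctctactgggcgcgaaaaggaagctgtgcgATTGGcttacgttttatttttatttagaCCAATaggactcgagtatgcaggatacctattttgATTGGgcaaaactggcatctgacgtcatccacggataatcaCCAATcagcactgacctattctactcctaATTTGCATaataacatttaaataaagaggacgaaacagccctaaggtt
Each of the 4 holds 1 octamer, here ATTTGCAT or its reverse complement, and between 3 and 6 copies of CCAAT. None holds any of the GATA motifs searched, which were AGATAA and the same ending in G, and also TGATAA and the same ending in G, on both strands.

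The same elements occur between pairs without an empty-vector anti-HA peak, as at H2BC8 and H2AC8 (chr6:26216689-26216920, plus strand) and at H2AC17 and H2BC17 (chr6:27893186-27893424, plus strand).
H2BC8 and H2AC8: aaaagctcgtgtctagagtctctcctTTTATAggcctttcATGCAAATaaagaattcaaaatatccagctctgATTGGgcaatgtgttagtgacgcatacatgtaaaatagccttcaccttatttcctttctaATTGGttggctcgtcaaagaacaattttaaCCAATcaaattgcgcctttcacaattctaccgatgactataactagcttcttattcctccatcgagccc
H2AC17 and H2BC17: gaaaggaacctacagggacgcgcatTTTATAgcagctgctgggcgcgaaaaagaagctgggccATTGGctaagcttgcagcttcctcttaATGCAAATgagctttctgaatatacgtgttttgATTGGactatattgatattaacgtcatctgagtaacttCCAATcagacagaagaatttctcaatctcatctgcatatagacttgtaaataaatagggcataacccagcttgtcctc
Both hold the octamer and no GATA motif, so these letters do not set the first 4 apart.

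For contrast, the 250 bases before the start of H2BC5 (chr6:26157871-26158120, plus strand), H4C8 (chr6:26285535-26285784, minus strand) and H3C3 (chr6:26045134-26045383, plus strand) are given with the same marks and any GATA motif also in capitals. These genes had no peak in any empty-vector anti-HA library but had peaks with tagged or endogenous GATA2.
H2BC5: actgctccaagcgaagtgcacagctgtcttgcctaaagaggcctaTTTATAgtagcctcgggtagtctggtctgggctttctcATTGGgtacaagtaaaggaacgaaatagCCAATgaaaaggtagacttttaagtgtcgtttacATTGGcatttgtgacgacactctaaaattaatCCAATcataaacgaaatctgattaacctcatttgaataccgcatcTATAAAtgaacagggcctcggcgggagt
H4C8: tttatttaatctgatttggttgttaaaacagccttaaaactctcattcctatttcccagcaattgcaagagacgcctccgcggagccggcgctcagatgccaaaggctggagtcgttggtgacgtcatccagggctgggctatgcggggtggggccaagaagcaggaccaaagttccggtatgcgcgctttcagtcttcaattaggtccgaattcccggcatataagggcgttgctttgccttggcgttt
H3C3: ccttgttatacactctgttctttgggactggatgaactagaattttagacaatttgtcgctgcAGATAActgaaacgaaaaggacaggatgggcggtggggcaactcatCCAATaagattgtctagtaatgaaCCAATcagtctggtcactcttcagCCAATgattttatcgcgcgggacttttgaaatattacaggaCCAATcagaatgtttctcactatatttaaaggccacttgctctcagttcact
H3C3 holds 1 GATA motif and 4 copies of CCAAT, H2BC5 holds 4 copies of CCAAT and 2 of TATAAA, and H4C8 holds none of the 4 elements.

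Over the 63 members with an entry in the promoter table (250 bases before to 50 after the start), CCAAT was present in 54 (85.7%, against 36.3% of all 15812 promoters of that length) and TATAAA in 41 (65.1%, against 9.64%). ATTTGCAT was present in 26 (41.3%, against 1.7%), made up of 11 of 16 H2A, 14 of 18 H2B and 1 of 11 H3 genes, and in no H1 or H4 gene. A GATA motif was present in 19 members (30.2%, against 19.6%), and in 11 (17.5%, against 17.6%) when the bases after the start were left out. These matches describe letters in a window and not bound sites. H4C1, H4C3, H2AC12, H3C11 and H3C12 had no entry.

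In wild-type cells the GATA2 antibody gave a peak at 46 ± 1.41 histone genes per library (SD, n = 4; values 46, 47, 47 and 44), which is 67.6% of the 68 members against 19.7% of all protein-coding genes. GATA2-low cells with empty vector had 8.25 ± 7.37 (values 3, 4, 7 and 19), 12.1% against 6.37%. The library with 19 also had the longest list of its group, 3667 peaks against 1839 to 2350. Without replicate 1, whose genotype label differs, the mean was 10. HA-GATA2 cells had 32.8 ± 3.77 with the same antibody (values 32, 34, 37 and 28), 48.2% against 20%. HA-GATA2(T354M) cells had 22.5 ± 9.11 (values 32, 11, 27 and 20), 33.1% against 12%. The wild-type libraries all lay above those of the other 3 groups, and the HA-GATA2 and HA-GATA2(T354M) values overlapped.

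With the HA antibody, HA-GATA2 cells had a peak at 29.5 ± 15.9 histone genes per library (SD, n = 4; values 30, 38, 43 and 7), 43.4% of members against 9.72% of all genes. HA-GATA2(T354M) cells had 17 ± 5.77 (values 12, 22, 22 and 12), 25% against 1.68%. Empty-vector cells had 5.5 ± 2.52 (values 9, 5, 3 and 5), 8.09% against 0.0275%. The low HA-GATA2 value came from replicate 4, whose list held 1925 peaks against 4090 to 6089 in the other 3. In every group the mean share of histone genes with a peak was above that of all genes, and by library the exception was replicate 1 of GATA2-low cells with empty vector and anti-GATA2, at 4.41% against 4.93%. In windows of 1 kb on each side of the start, which give every gene the same length, the wild-type shares were 57.1% of 63 members and 10.3% of 15812 genes, and the empty-vector anti-HA shares 6.35% and 0.0253%.

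**Figure D1:**
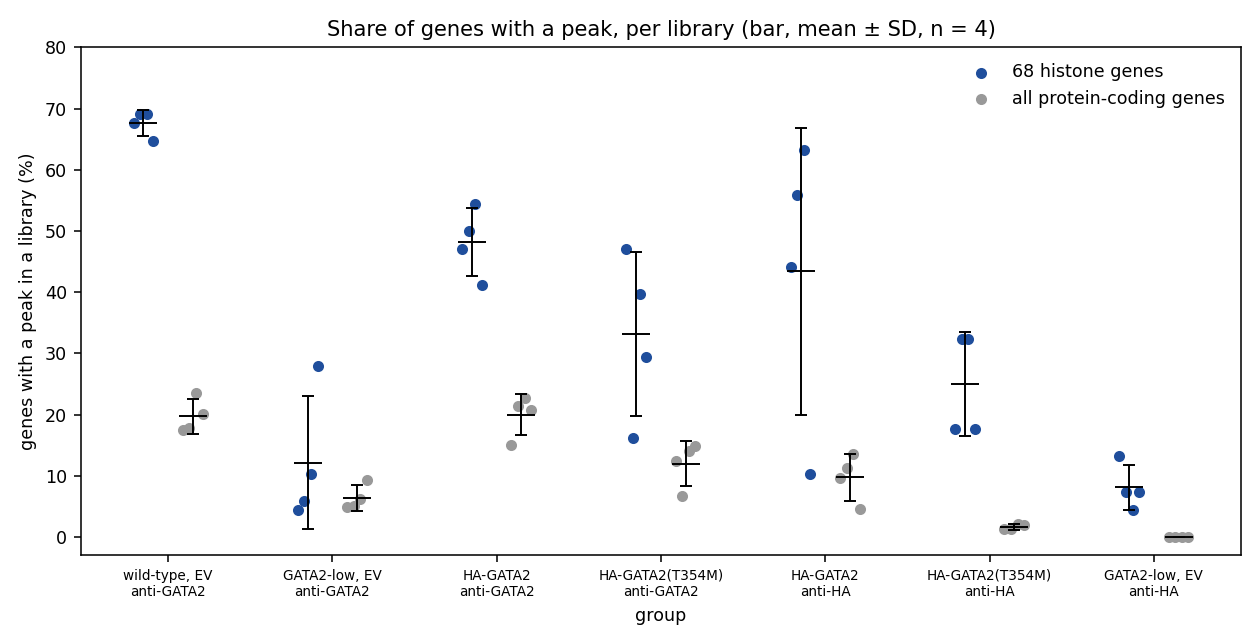
Share of genes with a peak in each library (%), by group on the x axis, for the 68 histone genes (blue) and all protein-coding genes (grey); points are libraries and bars the mean ± SD. The mean of histone genes lies above that of all genes in every group, from 67.6% against 19.7% in wild-type cells to 8.09% against 0.0275% in empty-vector cells with anti-HA.

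The lists differed in length. Those of HA-GATA2 cells by anti-GATA2 had the highest mean length and fewer members with a peak than those of wild-type cells. Mean list lengths were 7653 peaks in wild-type cells, 2446 in GATA2-low cells with empty vector, 10427 with HA-GATA2 and 4841 with HA-GATA2(T354M) for anti-GATA2, and 4267, 601 and 6.25 for anti-HA with HA-GATA2, HA-GATA2(T354M) and empty vector. Peaks at members were 0.545%, 0.245%, 0.273% and 0.330% of the 4 anti-GATA2 groups' lists in that order. They were 0.478% and 1.76% of the anti-HA lists with HA-GATA2 and HA-GATA2(T354M). In the empty-vector anti-HA lists they were 4 of 13, 2 of 7, 1 of 1 and 2 of 4 peaks. When each anti-GATA2 list was reduced to its 1839 peaks of lowest q, members with a peak were 5.75 in wild-type and 4.25 in GATA2-low cells per library. Within the wild-type lists the median percentile of the members' peaks by q averaged 36.7, so most lay in the weaker part of their list. The 8 anti-GATA2 lists of cells with tagged protein also had 0 mitochondrial peaks, where the other 2 anti-GATA2 groups had 4 to 11 a library, and their part in the comparisons between these groups was not tested.

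Of the 68 members, 56 had a peak in at least 1 of the 28 libraries, and their peaks, among 120964 deposited, lay in 55 separate sites. The 12 with none were H4C14, H3C14, H2AC18, H4C15, H2AC19 and H3C15 at 1q21 and H2AC1, H2BC1, H1-1, H1-6, H2BC6 and H4C7 on chromosome 6. The 6 at 1q21 are near-identical duplicate copies, and whether reads were placed uniquely there was not tested. H1-6, H2AC1 and H2BC1 are histone genes known from the testis. Because 23 of the 55 sites lay near 2 or more members, neighbouring genes often carried the same peak and are not independent.

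**Figure D2:**
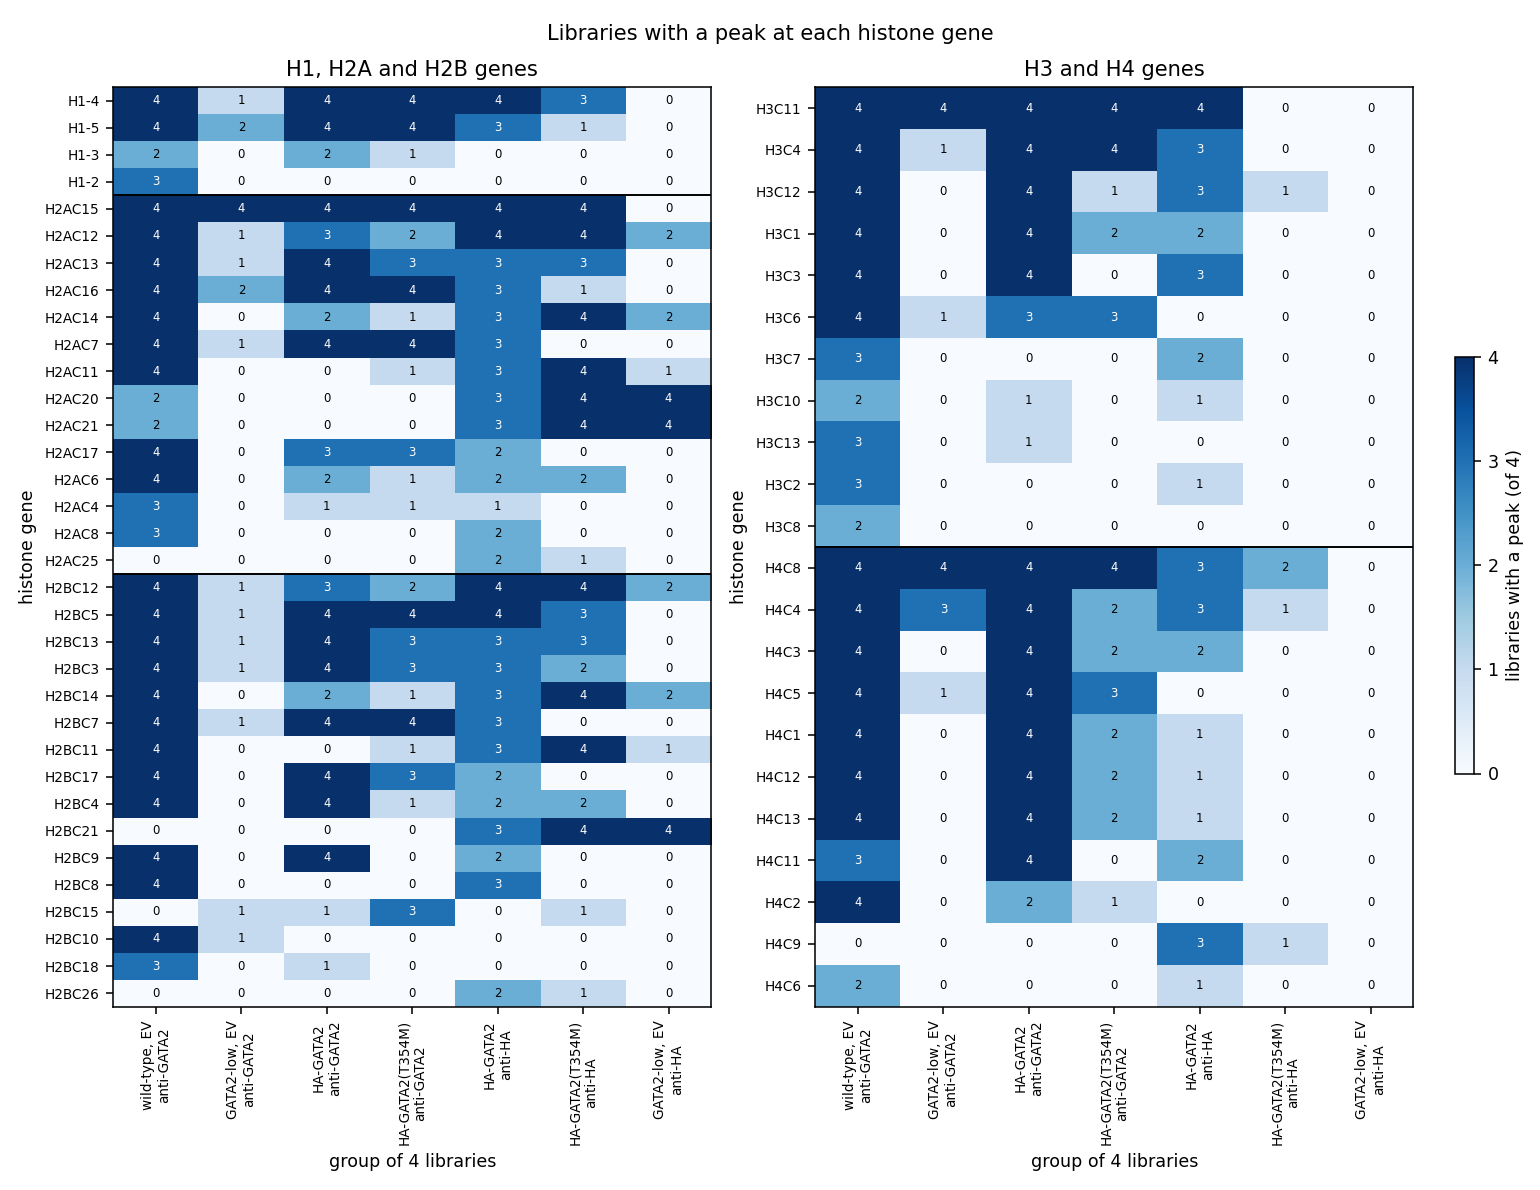
Number of libraries (of 4) with a peak at each of the 56 histone genes that had any, by group on the x axis; rows are genes, ordered within the H1, H2A, H2B, H3 and H4 classes by their total. The last column, empty vector with anti-HA, has values above 0 in 9 H2A and H2B genes, and the H3 and H4 genes are at 0 there.

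Empty-vector cells, which hold no HA tag, gave peaks at 9 protein-coding genes with the HA antibody, and all 9 were replication-dependent histone genes. Other peaks of these lists lay outside the windows of the genes counted. One at chr17:19063393-19063797 in replicate 1 (fold 23.5) recurred in replicates 2 and 4 (15.7 and 22.5). Replicates 1 and 2 also had 6 and 1 mitochondrial peaks. In replicate 1 the histone peaks ranked 8, 9, 11 and 12 of 13 by q. H2BC21, H2AC20 and H2AC21 had a peak in 4 of 4 libraries, H2BC12 and H2AC12 in 2, H2AC14 and H2BC14 in 2, and H2BC11 and H2AC11 in 1. These encode core histones H2A and H2B, and they form 4 sites, at chr1:149886464-149887145, chr6:27132461-27133163, chr6:27145813-27147508 and chr6:27814570-27815483. H2AC21 lies beyond H2AC20 and was counted through the 1 kb margin. All 9 empty-vector summits lay within the 250 bases before the nearest member's start, in the shared promoters printed above. All 8 of these members with a promoter entry hold ATTTGCAT and none a GATA motif, against 26 and 19 of all 63. These 8 members share 4 sites, and the octamer is not particular to them: it was between the starts of 9 of the 12 head-to-head pairs, 5 of which had no empty-vector anti-HA peak. Of those 5, the H2BC8 and H2AC8 pair and the H2AC17 and H2BC17 pair also held no GATA motif in the promoter window of either gene. At the H2AC7 and H2BC7 pair the window of H2AC7, which spans the bases between the starts, also held none.

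The site between H2BC21 and H2AC20 was recorded in anti-HA lists alone. In the empty-vector libraries the authors' fold over background at its summit was 9.32, 9.81, 7.33 and 6.64 in replicates 1 to 4, from 22, 27, 18 and 18 fragments over backgrounds of 1.47, 1.85, 1.59 and 1.86. With HA-GATA2(T354M) it was 9.73, 9.12, 8.11 and 6.86, and with HA-GATA2 7.59, 5.95 and 7.11 in replicates 1 to 3, with no peak in replicate 4. The site thus had a peak in 11 of 12 anti-HA lists and in 0 of 16 anti-GATA2 lists, and the empty-vector folds, 6.64 to 9.81, overlapped those with tagged protein, 5.95 to 9.73. The peaks at H2AC20 and H2AC21 in 2 wild-type anti-GATA2 libraries were at another site, chr1:149888128-149888536. Depth of the libraries is not given in the sources used here, so fragment numbers were not scaled.

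The other 3 empty-vector sites also had peaks with tagged protein and in wild-type cells. At the H2BC11 and H2AC11 promoter the empty-vector peak, in replicate 1, had 51 fragments over a background of 12.7 (fold 3.79). There HA-GATA2 gave anti-HA peaks in 3 libraries with 92, 79 and 103 fragments and HA-GATA2(T354M) in 4 with 87, 94, 87 and 79. Their backgrounds were also higher, at 17.4 to 20.5. Their folds were 4.72, 3.81 and 5.41 with HA-GATA2 and 4.10, 5.07, 4.74 and 4.34 with HA-GATA2(T354M). The lowest, in replicate 2 of HA-GATA2, was thus close to the empty-vector fold. Anti-GATA2 peaks at that promoter were in 4 wild-type, 0 GATA2-low empty-vector, 0 HA-GATA2 and 1 HA-GATA2(T354M) library. The H2AC14 and H2BC14 promoter had 35 and 34 fragments in empty-vector replicates 1 and 4, over backgrounds of 7.34 and 6.98, and the H2BC12 and H2AC12 promoter 41 and 38 in replicates 1 and 2, over 9.30 and 7.88. With anti-HA, the H2AC14 and H2BC14 site had peaks in 3 HA-GATA2 and 4 HA-GATA2(T354M) libraries and the H2BC12 and H2AC12 site in 4 and 4. A count of 0 in the other empty-vector libraries is the lack of a called peak and not of signal.

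**Figure D3:**
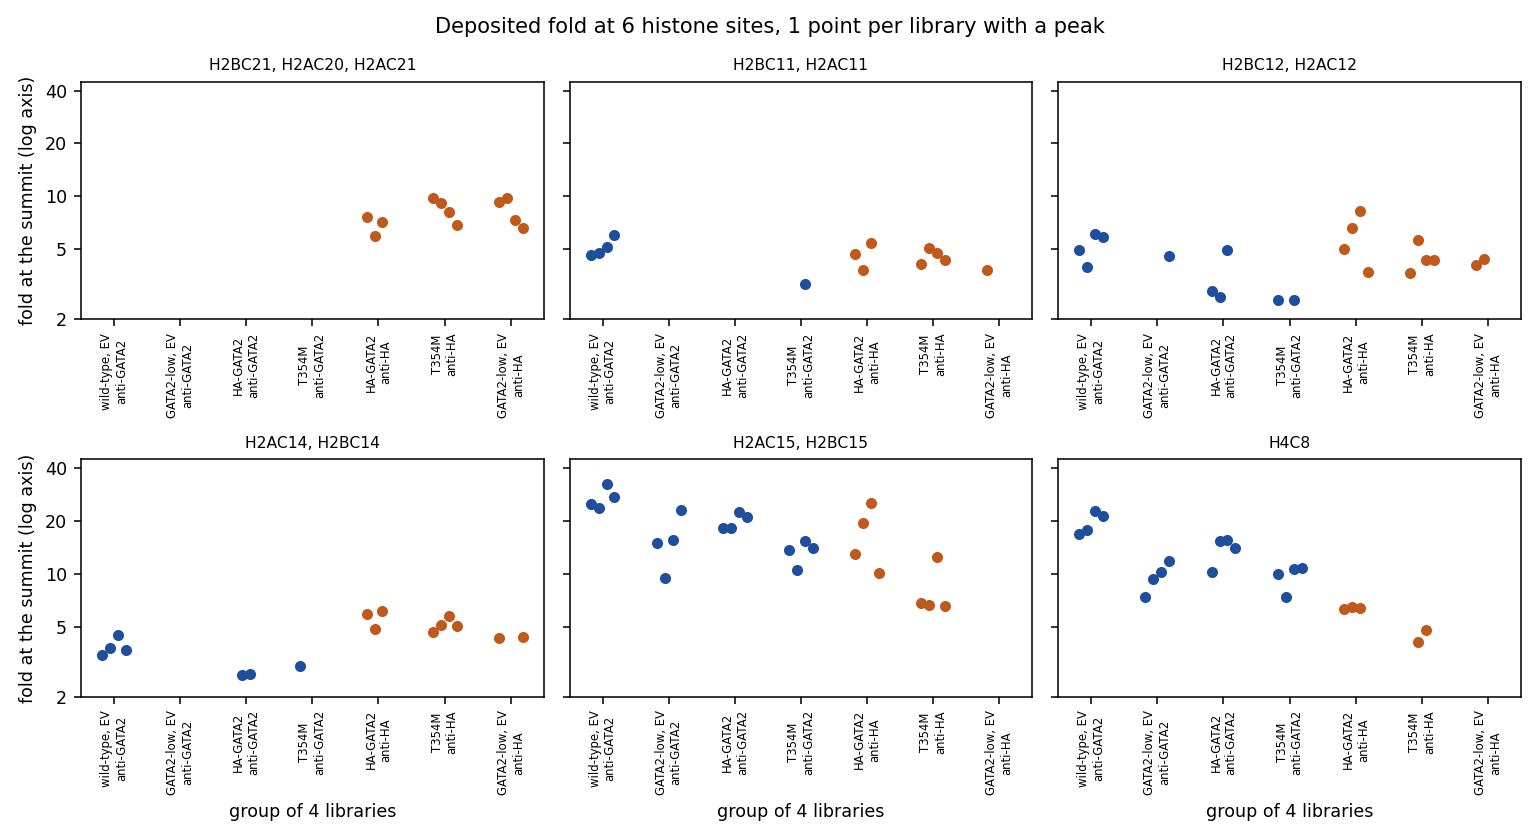
Fold over background at the summit (log axis), as deposited, at 6 histone sites, by group on the x axis; each point is 1 library with a peak, blue for anti-GATA2 and orange for anti-HA, and a library without a peak has no point. The H2BC21 and H2AC20 site has orange points alone, between 5.95 and 9.81, and the H2AC15 site has points in every group but empty vector with anti-HA.

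Against the anti-GATA2 libraries of the same empty-vector cells, H2BC21, H2AC20 and H2AC21 had an anti-HA peak in 4 of 4 and an anti-GATA2 peak in 0 of 4 libraries (3 of 27 members, with 0.146% of all 2057 genes tested so split). These 3 were all the genes split in that direction over the genome, and they were counted through 1 shared site. As sites, 1 of 16 was split in that direction and 3 of 16 in the opposite one. In the opposite direction H2AC15, H4C8 and H3C11 were split, 3 of 27 members against 35.7% of all genes. For each, Fisher's exact test (two-sided, 4 against 4 libraries) gave p = 0.0286, the smallest these groups allow, with adjusted p = 0.0286 over the genes present in exactly 4 of 8 lists. That p cannot go lower with 4 libraries a group, and over every gene with a peak the adjusted p was 0.0796, at which none passed.

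Peaks at the H2A and H2B genes and at the H3 and H4 genes differed in the anti-HA lists. In HA-GATA2(T354M) cells an anti-HA peak was found at 42.1 ± 10.8% of the 35 H2A and H2B genes per library (SD, n = 4; lowest 31.4%, highest 51.4%) and at 4.63 ± 5.56% of the 27 H3 and H4 genes (0 to 11.1%). Empty-vector cells had 15.7 ± 7.19% and 0%. In HA-GATA2 cells the anti-HA shares were 53.6 ± 27.4% and 33.3 ± 22%. The ranges of the shares did not overlap between the classes in HA-GATA2(T354M) or empty-vector cells, and they overlapped in HA-GATA2 cells. Within each HA-GATA2 library the anti-HA share was still higher for H2A and H2B genes. In replicates 1 to 4 it was 57.1% against 29.6%, 65.7% against 48.1%, 77.1% against 51.9% and 14.3% against 3.70%. With anti-GATA2 the class shares were 69.3 ± 4.29% and 68.5 ± 4.78% in wild-type cells and 35 ± 16.1% and 29.6 ± 11.7% in HA-GATA2(T354M) cells. The means had the opposite order with anti-GATA2 in HA-GATA2 cells, at 44.3 ± 9.76% and 54.6 ± 3.55%. Each of those libraries had that order, at 42.9% against 51.9%, 48.6% against 55.6%, 54.3% against 59.3% and 31.4% against 51.9%. In GATA2-low cells with empty vector the class shares were 11.4 ± 15.3% and 13 ± 4.78%. The classes were compared as a description, since head-to-head H2A and H2B genes count 1 peak under both names.

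**Figure D4:**
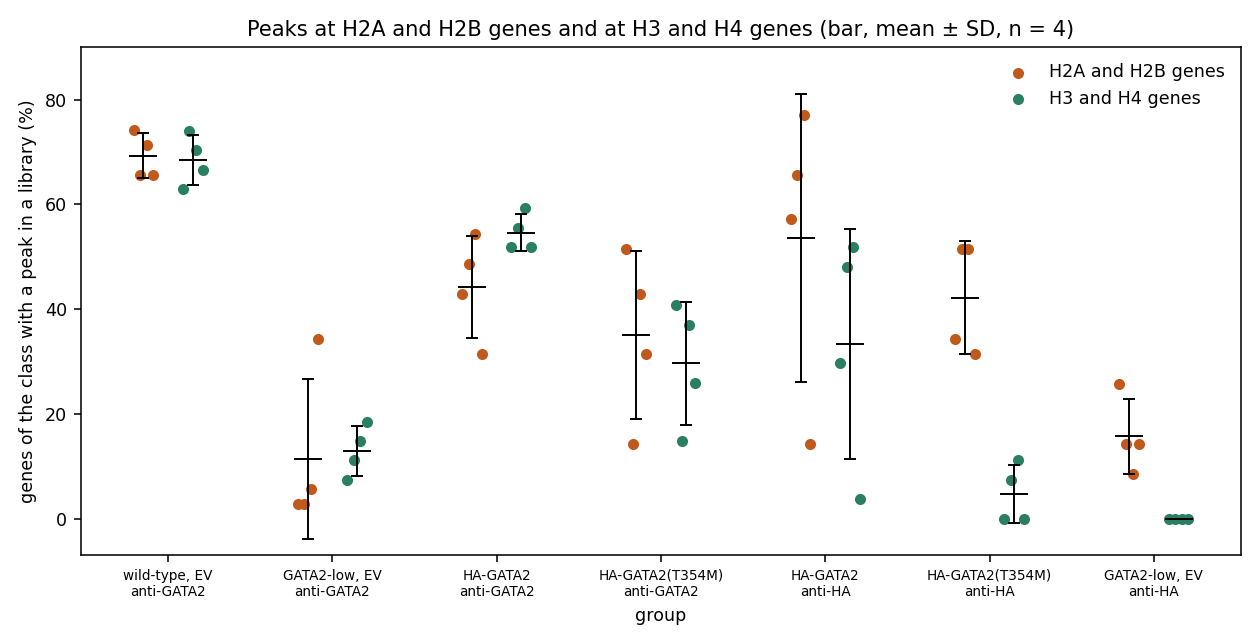
Share of the 35 H2A and H2B genes (orange) and of the 27 H3 and H4 genes (green) with a peak in each library (%), by group on the x axis; points are libraries and bars the mean ± SD. With anti-HA, HA-GATA2(T354M) libraries sit at 31.4% to 51.4% for H2A and H2B genes and at 0% to 11.1% for H3 and H4 genes.

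There were 12 head-to-head H2A and H2B pairs, 193 to 247 bases apart. A summit between the starts, or within 100 bases of them, was found in at least 1 wild-type anti-GATA2 library at 8 pairs and in at least 1 anti-HA library at 10 (HA-GATA2), 7 (HA-GATA2(T354M)) and 4 (empty vector). All 4 HA-GATA2(T354M) anti-HA libraries had one at 4 pairs, the same 4 at which empty-vector cells had any, and 3 further pairs had one in 1 to 3 libraries. These were H2BC13 and H2AC13 with 3, H2BC4 and H2AC6 with 2, and H2AC15 and H2BC15 with 1. The 3 have no empty-vector anti-HA peak. The H2AC1 and H2BC1 pair had no peak with either antibody.

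Summit positions differed by list. Peaks of the same site in several libraries were counted separately here, so they are not independent positions. Of the 9 empty-vector anti-HA peaks at members, which came from 4 sites, 9 (100%) had their summit within the 250 bases before a start. The same held for 65% of 40 HA-GATA2(T354M) and 42% of 88 HA-GATA2 anti-HA peaks. It held for 36% of 164 wild-type, 29.1% of 110 HA-GATA2 and 40.6% of 64 HA-GATA2(T354M) anti-GATA2 peaks. Over all groups, 32.9% of summits lay more than 500 bases from a start of the 63 members with a promoter entry. H4C1, H4C3, H2AC12, H3C11 and H3C12 had no start in this measure. Their peaks were measured to another member, as at H4C3, 4135 bases from the start of H1-6. The shares before a start can therefore miss summits before those starts, and by how much was not tested.

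The linker histone genes were split between those with peaks in most groups and those with few. H1-4, which encodes a linker histone, had a peak in 20 libraries, and H1-5 in 18, with 4 of 4 in wild-type, HA-GATA2 and HA-GATA2(T354M) cells for anti-GATA2. The site of H1-5, between it and H2AC16, was counted for both. H1-3 had a peak in 5 libraries, H1-2 in 3, and H1-1 and H1-6 in none. The peak of H1-4 lay in front of H2BC5, the sequence of which is printed above, and was counted for both genes. Its deposited fold was 9.41, 7.81, 6.93 and 6.39 in wild-type replicates 1 to 4. With anti-HA it was 8.57, 8.60, 9.27 and 2.98 in HA-GATA2 cells and 5.62, 4.30 and 5.26 in replicates 2 to 4 of HA-GATA2(T354M) cells. Empty-vector cells had no anti-HA peak there.

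H2AC15 had peaks in the most libraries of any member, 24 of 28, which were all but those of empty-vector cells with anti-HA. The site lay at chr6:27836658-27838996 with its median summit 1052 bases after the start of H2AC15, beyond the gene's far end. The deposited folds there were 24.9, 23.8, 32.4 and 27.4 in wild-type cells, 15, 9.53, 15.5 and 23.3 in GATA2-low cells with empty vector, 18.2, 18.2, 22.4 and 21.2 with HA-GATA2 and 13.7, 10.5, 15.3 and 14.1 with HA-GATA2(T354M), all by anti-GATA2. By anti-HA they were 13.1, 19.5, 25.3 and 10.1 with HA-GATA2 and 6.83, 6.63, 12.5 and 6.59 with HA-GATA2(T354M). The site stood at a median of the 97.8 percentile by q of the anti-GATA2 lists. H2AC15 was also the 1 member present in all 4 HA-GATA2(T354M) anti-HA libraries that was split from empty vector. With start windows in place of gene bodies it had a peak in 12 libraries.

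Among the H4 genes H4C8 had peaks in 21 libraries, all 16 of the anti-GATA2 lists among them. Its summit lay 81 bases after the start, and folds were 16.9, 17.7, 22.8 and 21.3 in wild-type cells and 7.34, 9.32, 10.3 and 11.9 in GATA2-low cells with empty vector. Folds are the caller's own, from lists of unlike length, so they were not tested between groups. H4C4 followed with 17 libraries, 3 of them of GATA2-low cells with empty vector. H4C9 had peaks in anti-HA lists alone, 3 with HA-GATA2 and 1 with HA-GATA2(T354M), and in no anti-GATA2 list.

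Among the H3 genes H3C11 had a peak in 20 libraries, the 16 anti-GATA2 and 4 HA-GATA2 anti-HA lists, and in no HA-GATA2(T354M) anti-HA list. H3C4 followed with 16 libraries, and H3C12 with 13. H3C13 and its neighbour H2BC18 at 1q21 were tied by a single site with peaks in 3 wild-type and 1 HA-GATA2 library. H2BC18 spans 29682 bp in the annotation, the longest of the members, whose median length was 494.5 bp. The 2 genes of 1q42, H2AC25 and H2BC26, had peaks in 2 HA-GATA2 and 1 HA-GATA2(T354M) anti-HA library and in no anti-GATA2 library.

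Comparing wild-type with GATA2-low cells with empty vector asks which GATA2 peaks depend on the dose of the protein. Of the 52 members with a peak in any of the 8 libraries, 18 (34.6%) had one in every wild-type library (4 of 4) but in no GATA2-low library (0 of 4), where 15.3% of all 5528 genes tested did so. They included H2BC11 and H2AC11, H2AC14 and H2BC14, H3C3 and H4C3. Adjusted p was 0.0330 (Fisher's exact test), and 0.187 over every gene with a peak, at which none passed. In the opposite direction 0 members were split (0.0181% of all genes). At 48 of the 52 members more wild-type than GATA2-low libraries had a peak, as did 85.5% of all genes tested. As sites, 14 of 50 were split. The count was 18 without replicate 1 of the GATA2-low group and 30 without its replicate 4. A gene split over all 8 libraries stays split when 1 is left out. Such counts, here and below, could therefore stay or rise but not fall, and they do not test stability. In lists of equal length 0 members were split.

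The split members spanned the classes: H2BC4, H2BC8, H2BC9, H2BC11, H2BC14 and H2BC17 of H2B; H2AC6, H2AC11, H2AC14 and H2AC17 of H2A; H3C1, H3C3 and H3C12 of H3; and H4C1, H4C2, H4C3, H4C12 and H4C13 of H4. No H1 gene was among them. H3C3 had fold values of 9.06, 4.27, 9.42 and 8.40 in wild-type replicates 1 to 4 and no peak in GATA2-low cells with empty vector. H4C3 had 7.58, 6.55, 7.99 and 17.8. Of the 15 split members with a promoter entry, 5 held a GATA motif, against 14 of the other 48.

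HA-GATA2 in GATA2-low cells, compared with the empty vector by anti-GATA2, addressed which peaks come back with the tagged protein. This comparison shares the empty-vector libraries with the one above, and those that follow also share groups. Of 41 members, 11 (26.8%) had one in every HA-GATA2 library (4 of 4) but no empty-vector library (0 of 4), near the 23% of all 5134 genes. They included H3C3, H4C3, H2BC17, H3C12, H4C11 and H4C12, all core histone genes. As sites, 8 of 33 were split. Adjusted p was 0.0320 by Fisher's exact test and 0.124 over every gene with a peak. The reverse was seen at 0 members (0% of all genes). H4C3 folds were 5.31, 6.21, 11.5 and 13.9 with HA-GATA2, H4C12 folds 9.20, 9.47, 10.2 and 8.40, and H3C12 folds 7.15, 9.78, 8.35 and 6.64. Without replicate 4 of the empty vector, 19 members were split, and without its replicate 1, 11.

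HA-GATA2(T354M) against the empty vector by anti-GATA2 split 0 of 37 members in either direction, against 4.02% and 0.0267% of all 3752 genes. No gene could pass, with an adjusted p of 0.075 for a 4 against 0 split. At 32 of the 37 members more HA-GATA2(T354M) than empty-vector libraries had a peak and at 2 fewer, against 68.2% and 7.52% of all genes tested. Without replicate 4 of the empty vector 5 members were split, and without replicate 2 of HA-GATA2(T354M), the shortest list of its group with 11 members, 2 were.

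HA-GATA2 against HA-GATA2(T354M) by anti-GATA2 asks what the mutation changes. H3C3, H4C11 and H2BC9 carried one in all 4 HA-GATA2 libraries but none of the 4 with HA-GATA2(T354M), 3 of 42 members (7.14%), close to the 8.05% of all 5439 genes. The reverse was seen at 0 members (0.0184% of all genes). Adjusted p was 0.0449 by Fisher's exact test and 0.354 over every gene with a peak. H2BC9 folds were 6.08, 5.60, 6.90 and 8.21 with HA-GATA2. H4C11 folds were 8.11, 10.3, 10.8 and 6.24 from summits beyond its far end. Those of H3C3 were 7.60, 7.19, 9.26 and 6.40. At 26 of the 42 members more HA-GATA2 libraries had a peak and at 3 more HA-GATA2(T354M) libraries, close to the 62.7% and 9.56% of all genes tested.

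HA-GATA2 cells and wild-type cells, both by anti-GATA2, differed at H2BC8, H2BC10, H2BC11 and H2AC11, which carried one in all 4 wild-type libraries but none of the 4 with HA-GATA2, 4 of 52 members (7.69%) against 1.93% of all 6567 genes. In the opposite direction 0 members were split, against 4.87% of all genes. Adjusted p was 0.0468 by Fisher's exact test and 0.420 over every gene with a peak. H2BC8 folds in wild-type cells were 7.40, 8.12, 6.31 and 10.6, where the strongest peak by q is given. The value of replicate 3 came from a summit 57 bases after the start of H2AC8, its head-to-head partner, and the others from a site beyond the far end of H2BC8, where replicate 3 also had a peak (fold 7.88). H2BC10 folds were 8.29, 4.79, 8.82 and 8.94, with summits near its start. H2BC11 and H2AC11 are the pair with an empty-vector anti-HA peak.

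With anti-HA, HA-GATA2 against empty vector split H2AC15, H3C11, H1-4 and H2BC5, 4 of 46 members (8.70%) against 28.3% of all 3056 genes. As sites, 3 of 36 were split. The reverse was seen at 0 members (0% of all genes). Adjusted p was 0.0286 by Fisher's exact test and 0.101 over every gene with a peak. HA-GATA2(T354M) against the same empty-vector libraries split H2AC15, 1 of 26 members (3.85%), against 21% of all 614 genes, with 0 in reverse (0%). Its adjusted p by Fisher's exact test was 0.0286, or 0.136 over every gene with a peak. Without replicate 4 of HA-GATA2, 17 members were split in the first comparison. In the second, 3 were without replicate 1 or 4 of HA-GATA2(T354M) or without replicate 1 of the empty vector.

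HA-GATA2 against HA-GATA2(T354M) by anti-HA split H3C11, 1 of 47 members (2.13%) against 14% of all 3075 genes, with 0 members in reverse (0%). H3C11 folds with HA-GATA2 were 11.5, 10.3, 11.3 and 6.65. Adjusted p was 0.0335 by Fisher's exact test and 0.204 over every gene with a peak. At 32 of the 47 members more HA-GATA2 libraries had a peak and at 8 more HA-GATA2(T354M) libraries, where over all genes 93.8% and 1.17% did. Without replicate 4 of HA-GATA2 5 members were split, and without its replicate 2, 2 were. In lists of equal length, at the 432 peaks of lowest q, 6 members were split in favour of HA-GATA2(T354M) and 0 in favour of HA-GATA2.

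**Figure D5:**
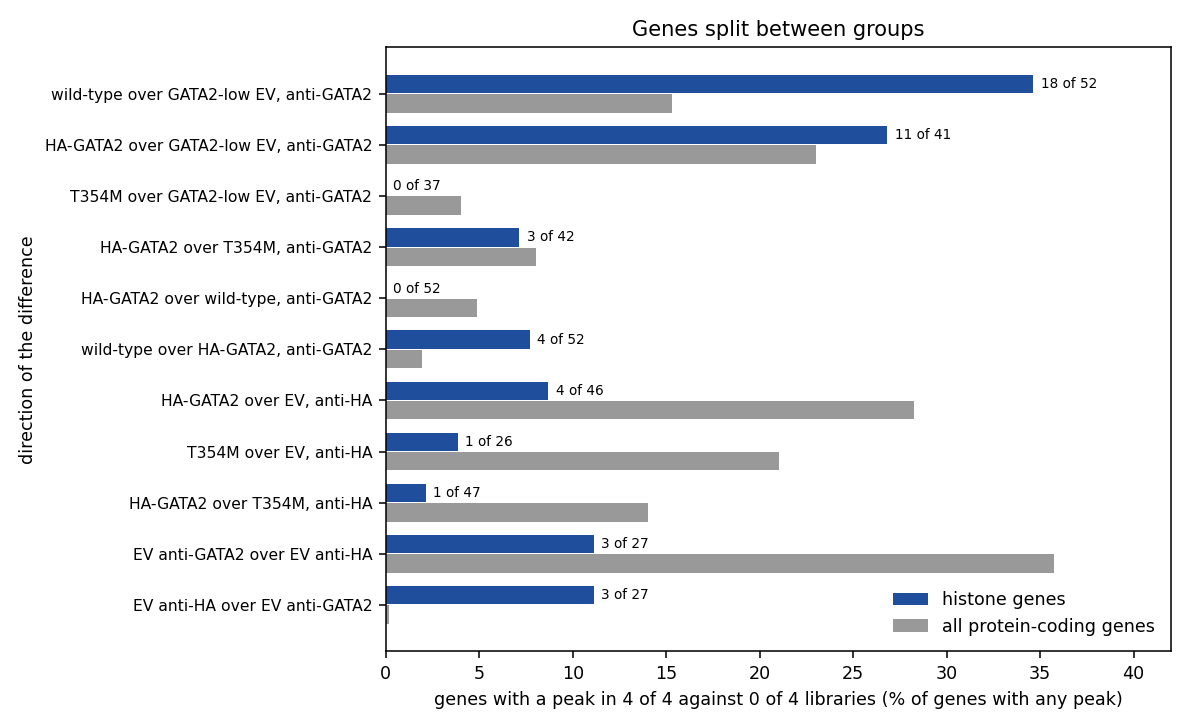
Genes with a peak in 4 of 4 libraries of 1 group and 0 of 4 of the other, as % of genes with a peak in any of the 8 libraries (x axis), for each direction in which at least 3 genes were split (y axis); blue bars are histone genes with their count, grey bars all protein-coding genes. Histone genes reach 34.6% against 15.3% for wild-type over GATA2-low cells and 11.1% against 0.146% for empty-vector anti-HA over anti-GATA2. The last 2 bars hold the same 3 genes, which share 1 site.

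Of the genes that act on histone messenger RNA or on histone protein, 0 had a peak in the empty-vector anti-HA lists. Only 0.0275% of all protein-coding genes had one per library there, so 0 in gene lists this short does not set them apart. Of 17 genes for the making of histone messenger RNA, 12 had a peak in any library, ERI1, an exonuclease that trims the stem-loop, in 24, LSM11, a part of the U7 particle that cuts the transcript, in 20 and CASP8AP2, a component of the histone locus body, in 14. NPAT, the coactivator of histone genes that cyclin E and CDK2 phosphorylate, had a peak in 10. Per library, 5.75 ± 1.5 (33.8%) had a peak in wild-type and 2.5 ± 0.577 (14.7%) in GATA2-low cells with empty vector (SD, n = 4). The shares of all protein-coding genes were 19.7% and 6.37%. Of the 8 chaperones, which carry histones to and from DNA, ASF1B had a peak in 15 libraries, DAXX in 13 and HIRA in 11. Between wild-type and GATA2-low cells 1 gene was split in each of these lists, in favour of wild-type. That was 1 of 11 messenger RNA genes tested and 1 of 5 chaperones tested, against 15.3% of all genes tested.

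Of 16 histone genes outside the rule, H2AZ2, a replacement variant, had a peak in 14 libraries and H2AX and MACROH2A1 in 6 each, with 2.5 ± 1.29 genes (15.6%) per wild-type library (SD, n = 4). Of the 19 other protein-coding genes that lie within the chromosome 6 cluster, 3.75 ± 1.26 (19.7%) had a peak per wild-type library and TRIM38 had the most libraries, 10. Neither list had a peak in an empty-vector anti-HA library, which does not set them apart from the 0.0275% of all genes. All 6 erythroid markers (GATA1, KLF1, ALAS2, EPOR, TFRC and SLC4A1) had a GATA2 peak in 4 of 4 wild-type libraries, and of 6 markers of other blood lineages CSF1R alone had any, in 4 libraries.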

How the data were processed

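CUT&Tag peak lists of 28 libraries were analysed, and 8 IgG libraries were not used here. Tools named per the submitters' processing notes are MACS2 2.2.7.1, Bowtie2 2.2.5, cutadapt 3.3, FastQC and deepTools 3.5.3, and the build hg38. No settings are named in the sources used. The deposited narrowPeak columns used were the fold (a ratio over local background), the -log10 p and the -log10 q; the deposited score column was not used. The lowest deposited -log10 q was 6.00. Peaks were called per library, and 455 peaks off chromosomes 1 to 22 and X were left out.

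Summits were assigned with Python 3.11.15, pandas 2.3.3 and NumPy 2.4.6. Peak presence was compared per gene with a two-sided Fisher's exact test (SciPy 1.17.1) over 19970 genes and adjusted by Benjamini-Hochberg over genes with a peak in exactly 4 of 8 libraries, or, as an alternative, over all genes with a peak. Tested on simulated data, it split every changed gene in each comparison, but in most comparisons none of them passed the adjustment, since a split cannot go below its smallest p. Recovery of every changed gene does not measure how often a weaker change would be split, and no rate of false splits is given. Whole fragments were recovered from fold and -log10 p within 0.03% in 20 libraries and could not be in 8, the anti-GATA2 libraries with tagged protein. The library depth is unknown. Same-numbered libraries did not deviate together (correlations of -0.0895 to 0.188). Members and gene lists were chosen with earlier results of these data known. Named genes were those with an empty-vector anti-HA peak, the 6 in most libraries, and up to 6 split per comparison; members named beyond these were chosen after their values were seen. Alternatives changed the window, q, list length, adjustment and replicate set; start-site windows were added after seeing the data.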

Additional observations from a re-analysis of the deposited data

Results flagged for a closer look

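In the anti-HA lists of HA-GATA2 cells, peaks at histone genes made up 0.26% of the list in replicate 4 against 0.526% to 0.564% in the other 3 libraries, a gap of 0.873 of the whole range. That library had 7 histone genes with a peak. Its distance from the others passed Dixon's limit for 4 samples, the only such case among 21 groups and measures, where chance gives about 1 in 20.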

How the results depend on the processing

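Histone genes with a peak per library, for wild-type, HA-GATA2 and HA-GATA2(T354M) by anti-GATA2, were 13.5, 10 and 4.5 with gene bodies only, 34, 20.2 and 10.2 at a -log10 q of at least 15, and 5.75, 1.5 and 3 in lists of equal length. Wild-type and HA-GATA2 values were 53.2 and 42.5 with a window of 5000 bp and 36 and 23.8 with start-site windows. By anti-HA, HA-GATA2, HA-GATA2(T354M) and empty vector had 7.5, 2.75 and 0 with gene bodies only. At a -log10 q of at least 15 the last 2 had 9.75 and 0.75, and HA-GATA2 had 1 in lists of equal length. Leaving out 1 library gave 45.7 to 46.7 in wild-type, 4.67 to 10 in GATA2-low empty-vector, 31.3 to 34.3 in HA-GATA2 and 19.3 to 26.3 in HA-GATA2(T354M) cells by anti-GATA2, and 25 to 37, 15.3 to 18.7 and 4.33 to 6.33 by anti-HA with HA-GATA2, HA-GATA2(T354M) and empty vector.

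Split members, by anti-GATA2 (wild-type over empty vector, HA-GATA2 over empty vector, HA-GATA2 over HA-GATA2(T354M), wild-type over HA-GATA2, in that order), were 3, 3, 1 and 0 with gene bodies only and 0 in each with lists of equal length. At a -log10 q of at least 15, HA-GATA2 over empty vector gave 6 and wild-type over HA-GATA2 2, and start-site windows gave 6 for HA-GATA2 over empty vector. HA-GATA2(T354M) over empty vector gave 3 with a window of 5000 bp. By anti-HA, HA-GATA2 over empty vector gave 0 with gene bodies only, 7 with 5000 bp, and 1 at the stricter q, with equal lists and with start-site windows. HA-GATA2(T354M) over empty vector gave 0, 2, 5 and 0 (gene bodies, 5000 bp, stricter q, start-site windows), HA-GATA2 over HA-GATA2(T354M) 0 with gene bodies, stricter q, equal lists and start-site windows. In equal lists empty vector over HA-GATA2 gave 3 and HA-GATA2(T354M) over HA-GATA2 gave 6. Empty-vector anti-GATA2 over anti-HA gave 1, 6 and 1 (gene bodies, 5000 bp, start-site windows), and anti-HA over anti-GATA2 0 with gene bodies and at the stricter q. Adjustment over every gene with a peak gave 0 calls in each comparison.

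Leaving out 1 library gave 18 to 30, 11 to 19, 0 to 5, 3 to 4 and 4 to 6 split members for wild-type, HA-GATA2 and HA-GATA2(T354M) over empty vector, HA-GATA2 over HA-GATA2(T354M) and wild-type over HA-GATA2 by anti-GATA2. It gave 4 to 17, 1 to 3 and 1 to 5 in the 3 anti-HA comparisons, and 3 to 4 and 3 between the antibodies. These counts of split members could not fall below those reported, since a split gene stays split when 1 library is left out. With the replicate number as a block (exact sign test, smallest p 0.125) 0 members were called in each comparison, and the numbers do not pair the libraries. Of 134 values of named genes under other settings, 78 stayed within the exact binomial confidence interval of the reported count out of 28 libraries. GATA motifs were in 11 members with only the bases before the start. The causes were not tested.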
